A study of Homo sapiens with 55 samples.

Results

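Splicing in SF3B1 K700E K562 cells was compared between cells with guides against SUGP1 (sgSUGP1) and cells with guides against GPATCH8 (sgGPATCH8). K562 is an established human leukemia line, and the cells of both groups carried K700E, a knocked-in mutation of the splicing factor SF3B1. The libraries were chosen by their labels: guides 3 and 4 for SUGP1 and guides 16 and 17 for GPATCH8, each sequenced in 2 runs. That gave 8 of the 55 samples of the series, and the runs of a guide were averaged to 1 library, 2 libraries a group. The same guides were also used in K562 cells with wild-type (WT) SF3B1, again 2 libraries a group, and in 293T, an embryonic kidney line, with 4 libraries a group. The control guide, sgRenilla, targets a luciferase gene absent from human cells and gave 1 control library for each K562 genotype and 2 for 293T, and these did not enter the comparison. The labels do not say whether a guide stands for 1 clone or for how many cultures, so p-values measure only the spread between these samples, which may be technical.

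SF3B1 is a subunit of the U2 snRNP, the part of the spliceosome that settles on the branch point of an intron. Its K700E mutant lets the spliceosome use cryptic 3' splice sites a short way upstream of the usual ones. SUGP1 is a protein with a G-patch domain that binds SF3B1, the mutant binds it poorly, and loss of SUGP1 by itself is known to give mutant-like splicing. GPATCH8 is another protein with a G-patch domain, and proteins of this kind activate DEAH-box helicases of the spliceosome. The series asks what GPATCH8 does for mis-splicing by mutant SF3B1, and setting it beside SUGP1 asks at which introns and exons the loss of one differs from the loss of the other.

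The measurement was usage: for each splicing event, the share of transcripts that use its isoform listed first, in percent, as the authors deposited it. That isoform includes the exon in skipped-exon events, uses the upstream site in alternative 3' splice site events and is spliced in retained-intron events. Differences are sgSUGP1 minus sgGPATCH8 in percentage points. Positions of introns are in hg19. An event was called where the limma adjusted p was under 0.05 and the difference at least 5 points. No file gives the number of reads behind a value, so the depth is unknown.

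The 6 very short exons called in the comparison are shown first, because their whole sequence fits in a line. The exon is in capitals, and lower case letters are the ends of the neighbouring exons, read from GENCODE 29 transcripts (GRCh38). ACOT9 lies at chrX:23734341-23734367 (minus strand), UGGT1 at chr2:128156392-128156415 (plus), TRAPPC13 at chr5:65655636-65655653 (plus), ACLY at chr17:41896620-41896649 (minus), TEAD1 at chr11:12878889-12878900 (plus) and PSAP at chr10:71823888-71823896 (minus).
ACOT9: gCATGTTCATCTATACATGTGAATCATGt
UGGT1: aagGAATGTCCTCCAAGGAAATCTATGatg
TRAPPC13: agagAGTGACCTCAGTTCTGTGactg
ACLY: ATTCAGTCCCAAGTCCAAGATCCCTGCAAG
TEAD1: aaagGTAACAAGCATGgatc
PSAP: catgCAGGATCAGcaac

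For 5 alternative 3' splice sites whose sites lie close together, the bases that decide between the isoforms are shown as well. Here the capitals are the stretch between the sites, which stays in the transcript only if the upstream site is used, and the lower case letters are the exons on each side. INTS14 lies at chr15:65607426-65607442 (minus strand), SMCO4 at chr11:93479270-93479284 (minus), E2F7 at chr12:77064636-77064653 (minus), TMEM14C at chr6:10724556-10724569 (plus) and DYNLL1 at chr12:120496402-120496415 (plus). Pyrimidines (C or T) made up 50% of the stretch in E2F7, 64.3% in DYNLL1, 70.6% in INTS14, 71.4% in TMEM14C and 73.3% in SMCO4.
INTS14: cgggCATTTCTTCGTTTATAGctgt
SMCO4: aaagTTGTTCTCTCTACAGgagg
E2F7: agggTGTAATTGTGCATTACAGatgg
TMEM14C: accgCTTGTTTTCTGCAGgtgc
DYNLL1: cacgGCCTTGCCCACTAGgtaa

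The files hold no gene levels. For the targeted genes only their splicing was therefore measured, and markers of K562 cells could not be checked. None of the tested events in SUGP1 (7), GPATCH8 (2) or SF3B1 (2) was called by limma, with differences between −7.7 and 8.0 points and a lowest adjusted p of 0.263. At an unadjusted p under 0.05 stood 2 events, a 5' splice site in SUGP1 (−2.7 points) and an intron of SF3B1 (−4.2 points). These values say nothing on how much SUGP1 or GPATCH8 protein was left. Each run gave a value for 72.4% to 77.1% of events over the 8 K562 libraries with these guides. The guides of a group differed by a median of 2.5 points for sgSUGP1 and 3 points for sgGPATCH8, and the runs of a library by 4 to 5 points. The runs also differed by library. In tandem 3' UTR events the mean usage of the K700E sgSUGP1 libraries was 45.8% and 43.3% in run 1 and 37.9% and 38.8% in run 2, while the K700E sgGPATCH8 libraries stood between 43.6% and 44.7% in both runs. The WT sgGPATCH8 libraries, which share the fit, moved the other way, from 47.5% and 47.6% to 56.1% and 57.8%, and the K700E sgRenilla library from 43.9% to 60%.

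Of 49783 tested events, 233 in 176 named genes were called, 85 with higher and 148 with lower usage in sgSUGP1. The share called was 0.468%, with 0.171% higher and 0.297% lower, and 7837 events had an unadjusted p under 0.05. Most of these calls lay close to the limit, 197 of 233 with an adjusted p between 0.04 and 0.05. Leaving out either sgSUGP1 library or either sgGPATCH8 library of the K700E cells left 0 calls, with 5960 to 6920 events at an unadjusted p under 0.05. Without one of the 4 WT libraries that share the fit, 0 to 2 were called. Since the runs differed, the events were also read run by run. In 151 of the 233 called events the groups did not overlap and differed in the same direction in run 1 and in run 2, 67 with higher and 84 with lower usage in sgSUGP1. Among all tested events 10.3% met this reading, 5.66% higher and 4.61% lower. It was chosen after the values were seen and is a description.

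Those 151 calls had a median difference, in the direction of the call, of 17.5 points in run 1 and 26.5 in run 2. The other 82 calls had medians of 0 and 38.5 points. The plot of both runs shows these sets apart. In 58 calls the difference was under 10 points in run 1 and over 30 in run 2. In these 58, picked for that change, usage moved between the runs by a median of 49 and 40.5 points in the K700E sgGPATCH8 libraries and of 7 and 4.5 points in the K700E sgSUGP1 libraries. The other K562 libraries moved there too, by medians of 47 (K700E sgRenilla) and 39 to 44 points (WT), so the K700E sgSUGP1 libraries moved least of the K562 libraries.

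**Figure D1:**
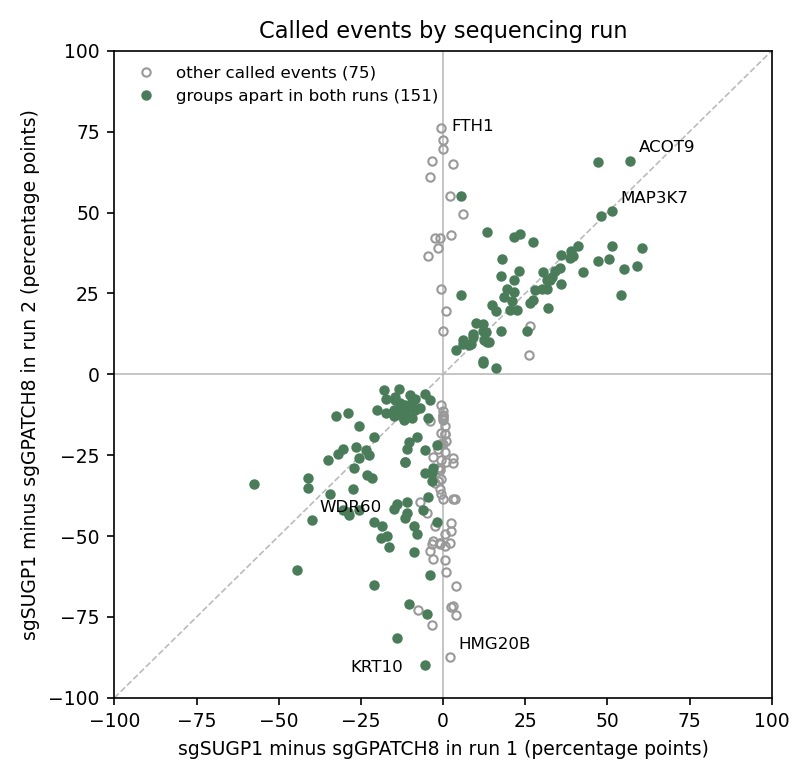
Difference in usage between sgSUGP1 and sgGPATCH8 K700E libraries in run 1 (horizontal axis) and run 2 (vertical axis), in percentage points, 1 point per called event with a value in both runs. The 151 events whose groups were apart in both runs lie mostly along the diagonal, except 13 that are under 10 points in run 1 and over 30 in run 2, KRT10 among them. Of the 75 others 45 lie there, FTH1 among them.

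Among very short exons, often called microexons, every call was for higher inclusion in the sgSUGP1 libraries. Of 423 tested exons of up to 30 nt, a limit chosen after the values were seen, 6 were called (1.42%, beside 0.468% of all events), and their groups were apart in both runs. ACOT9, an acyl-CoA thioesterase of mitochondria, has an exon of 27 nt (chromosome X, intron 23752484 to 23754036). It was included in 83.5% and 83% of transcripts with the SUGP1 guides and in 29.5% and 14% with the GPATCH8 guides. The groups did not overlap, and the K700E sgRenilla library, at 74.5%, lay near sgSUGP1. The difference was 61.5 points (log2 ratio 4.13 ± 0.48 SE, limma adjusted p 0.0447), the largest of all calls.

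UGGT1, a sensor of misfolded glycoproteins in the endoplasmic reticulum, included its exon of 24 nt (chromosome 2, intron 128913161 to 128913966) in 73% and 69.5% with sgSUGP1 and in 27.5% and 18% with sgGPATCH8. The difference was 48.5 points (3.03 ± 0.33, limma adjusted p 0.0435). In TRAPPC13, a subunit of a vesicle tethering complex, the exon of 18 nt (chromosome 5, intron 64948372 to 64951463) stood at 60% and 63.5% against 25% and 24%, a difference of 37.3 points (limma adjusted p 0.0447). Both genes gave groups far apart, with the sgRenilla library at 66.5% and 61%, in the range of sgSUGP1 or just under it. ACLY makes cytosolic acetyl-CoA from citrate. Its exon of 30 nt (chromosome 17, intron 40052902 to 40054002) was included in 71.5% and 73.5% against 42% and 45%, a difference of 29 points (limma adjusted p 0.0435). The shortest of the 6 exons were included less in both groups. The exon of 12 nt in TEAD1, a transcription factor of the Hippo pathway (chromosome 11, intron 12886447 to 12900436), stood at 22% and 25.5% against 6.5% and 5.5% (limma adjusted p 0.0477). The exon of 9 nt in PSAP, the precursor of the lysosomal saposins (chromosome 10, intron 73583653 to 73585594), stood at 23% and 24% against 8.5% and 7.5% (limma adjusted p 0.0446). In ACLY, TEAD1 and PSAP, too, the groups did not overlap.

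**Figure D2:**
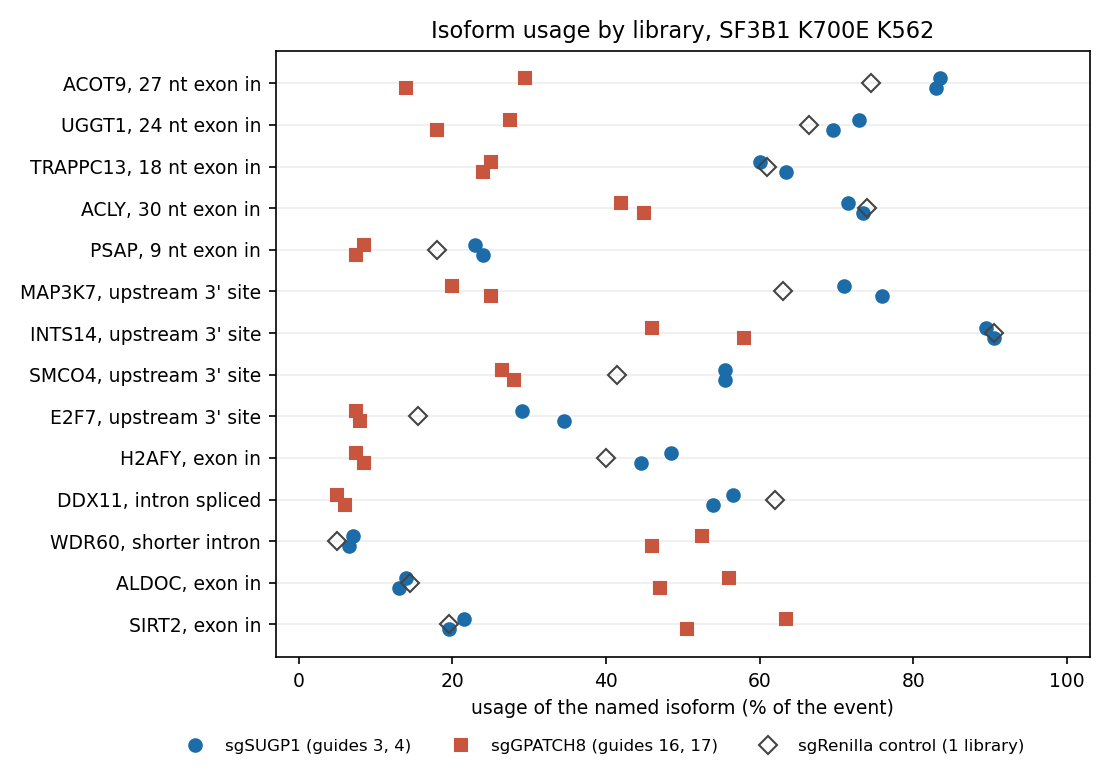
Usage in percent (horizontal axis) of 14 called events (vertical axis) in each SF3B1 K700E K562 library: circles are the sgSUGP1 libraries, squares the sgGPATCH8 libraries and the open diamond the sgRenilla control library. In ACOT9 the circles sit at 83% and 83.5% and the squares at 14% and 29.5%, and in no event of the plot do circles and squares overlap.

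More short exons showed the same direction without a call. Groups were apart in both runs in 45 of the 423 with higher inclusion in sgSUGP1 (10.6%) and in 21 with lower inclusion (4.96%). Among all 17854 skipped exons with a known length these shares were 6.89% and 4.09%. With at least 20 points between the groups in addition, 14 were higher in sgSUGP1 and 4 lower. BAZ2B, a bromodomain protein, was at 73.5% and 80% against 21.5% and 29% (limma adjusted p 0.0511). DST, which links cytoskeletal filaments, was at 51.5% and 66% against 22% and 14.5% (0.0712, limma adjusted p). FLNA, an actin crosslinker, was at 66% and 66.5% against 39.5% and 26.5% (0.099, limma adjusted p). CLASP2, a microtubule-binding protein, has an exon of 3 nt, which was included in 94.5% and 93.5% against 75% and 65.5% (0.0552, limma adjusted p). The groups of these 4 did not overlap, and none passed the test. In the other direction stood the transporter SLCO4A1, with overlapping exons of 27 and 30 nt (−42.5 and −40.0 points), the acetyltransferase NAT9 (−39.5) and UBXN11 (−21.0), none of them called.

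The lengths of these exons were then read. All 14 short exons that were higher by at least 20 points had a length that is a multiple of 3, as had the 6 called ones. Of the 423 tested, 282 (66.7%) did, and of all skipped exons with a known length 41.6%. Without the limit of 20 points the share was near that of the 423: 34 of the 45 short exons with groups apart and higher inclusion (75.6%), and 15 of the 21 with lower inclusion (71.4%). In 293T cells, where the same limit was applied, 19 of 316 exons of up to 30 nt were called higher in sgSUGP1 (6.01%) and 1 lower, and all 19 had a length that is a multiple of 3. The share called higher was 0.936% for exons of 31 to 60 nt, 0.318% for 61 to 100 nt, 0.14% for those over 100 and up to 200 nt and 0.0606% above 200 nt. All 20 calls were among the 212 of the 316 whose length is a multiple of 3.

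**Figure D3:**
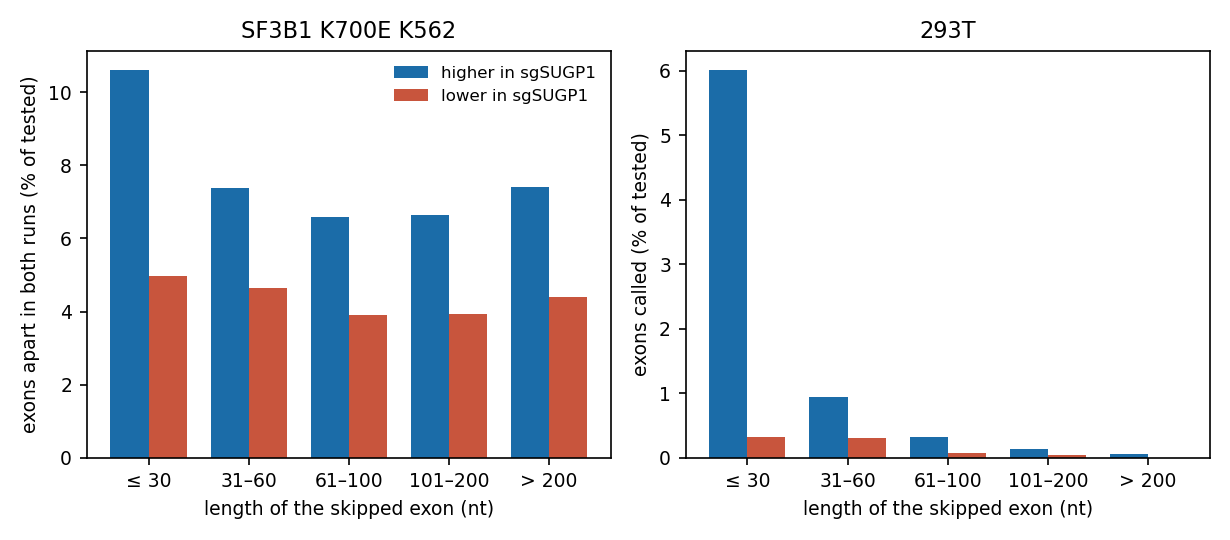
Skipped exons by length in nt (horizontal axis): the left panel gives the percent of tested exons whose groups were apart in both runs in K700E K562 cells, the right panel the percent called in 293T cells, with bars for higher and lower inclusion in sgSUGP1. The class of up to 30 nt has the tallest bars for higher inclusion in both panels, 10.6% and 6.01%.

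Longer exons and introns also separated the groups in K700E cells, and some of these events were called in 293T cells too. Among them were the DDX11 intron and the WDR60 event described next, with 20 and −32 points in 293T (limma adjusted p 0.0151 and 0.0102). The widest gap among introns was in DDX11, a helicase of sister chromatid cohesion. Its intron on chromosome 12 (31242424 to 31242825) was spliced in 56.5% and 54% of transcripts with sgSUGP1 and in 5% and 6% with sgGPATCH8. The groups were 49.8 points apart (4.18 ± 0.18, limma adjusted p 0.00604), and the sgRenilla library was at 62%. Another 4 called DDX11 events overlap this intron and are not separate evidence. All but the intron from 31242085 to 31242820 share its 5' splice site. DDX11 has near-identical copies, and DDX12P, one of them, had a called event too (43.0 points), so reads could be split between them and these values are uncertain. WDR60, a dynein subunit of cilia, used its shorter intron (chromosome 7, 158697974 to 158698680) in 7% and 6.5% with sgSUGP1 and in 52.5% and 46% with sgGPATCH8 (−42.5 points, −3.56 ± 0.21, limma adjusted p 0.0158). The sgRenilla library was at 5%, beside sgSUGP1.

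H2AFY encodes the histone variant macroH2A1, whose mutually exclusive exons are known to be regulated in cancer. An exon of 91 nt (chromosome 5, intron 134686603 to 134696187) was included in 48.5% and 44.5% with sgSUGP1 and in 7.5% and 8.5% with sgGPATCH8 (38.5 points, limma adjusted p 0.0185). The other exon of the pair went the other way, 45.5% and 46.5% against 73% and 73% (−27.0 points, limma adjusted p 0.0435). ACTN4, an actin crosslinker, used the upstream of its mutually exclusive exons (chromosome 19, intron 39200116 to 39200897) in 94.5% and 93.5% against 59.5% and 62.5% (33.0 points, limma adjusted p 0.0185). In neither gene did a library of one group reach the other group. ALDOC, a glycolytic aldolase, included an exon of 56 nt in 14% and 13% against 56% and 47% (−38 points, limma adjusted p 0.0435). SIRT2, a deacetylase, included one of 47 nt in 21.5% and 19.5% against 63.5% and 50.5% (−36.5 points, limma adjusted p 0.0488). Both exons were included more with the GPATCH8 guides, and the groups did not overlap. The splicing regulator TRA2A had a called skipped exon of 90 nt that was included in 7% and 7% against 20.5% and 19.5% (limma adjusted p 0.0458). Further calls with groups apart in both runs included MOV10, an RNA helicase (30.2 points), the prefoldin subunit PFDN5 (31 points), the myosin light chain MYL6 (21.7) and the kinesin KIF13A (20.2).

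The largest differences among the longer exons and the more distant sites were in KANSL3 and RNF44. KANSL3, a subunit of a histone acetyltransferase complex, included an exon (chromosome 2, intron 97297280 to 97302658) in 88.5% and 83.5% against 25.5% and 34% (56.2 points, limma adjusted p 0.0314), with the sgRenilla library between the groups at 49.5%. RNF44, a ubiquitin ligase gene, used the upstream of 2 sites 61 nt apart (chromosome 5, intron 175959194 to 175959367) in 18.5% and 30% against 75% and 78.5% (−52.5 points, limma adjusted p 0.0435), with sgRenilla at 65%. Neither gene's groups overlapped. In 293T the RNF44 event was called in the same direction (−32.2 points, limma adjusted p 0.0257) and this KANSL3 exon was not (limma adjusted p 0.0944). Another called KANSL3 event has the same intron and sets its 3' splice site against one 61 nt away. It stood at 36.5% and 41% against 6% and 8.5% (31.5 points, limma adjusted p 0.0323). That event was called in 293T in the same direction (24.5 points, limma adjusted p 0.0107).

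K700E is known for the use of upstream 3' splice sites, and these were read as a group. Among alternative 3' splice sites whose sites lie 10 to 30 nt apart, 8 were called with higher and 3 with lower use of the upstream site in sgSUGP1, of 1247 tested (0.882%). Their groups were apart in both runs in 122 events with higher and 63 with lower use, 14.8% of the 1247. The share apart was 10.3% of all tested events and 8.83% of all alternative 3' splice sites, and sites over 150 nt apart gave a similar 14.1%, 73 higher and 31 lower. MAP3K7, the kinase TAK1 of NF-kappaB signalling and a known K700E target, had its sites 20 nt apart (chromosome 6, upstream site of the intron 91269953 to 91271341). The upstream site was used in 71% and 76% with sgSUGP1 and in 20% and 25% with sgGPATCH8. The sgRenilla library of K700E cells was at 63% and that of WT cells at 9.5%. The difference was 51.0 points (3.19 ± 0.32, limma adjusted p 0.0435), 51.5 in run 1 and 50.5 in run 2.

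SMCO4 (chromosome 11, intron 93212450 to 93232442, sites 15 nt apart) stood at 55.5% and 55.5% against 26.5% and 28% (28.3 points, limma adjusted p 0.0435). E2F7, a repressor of cell cycle genes (chromosome 12, intron 77458433 to 77459125, 18 nt), stood at 29% and 34.5% against 7.5% and 8% (24 points, limma adjusted p 0.0494). The K700E sgRenilla libraries lay between the groups in both, at 41.5% and 15.5%. INTS14, a subunit of the Integrator complex (chromosome 15, intron 65899780 to 65903436, 17 nt), was at 89.5% and 90.5% against 46% and 58% (38 points, limma adjusted p 0.0427), with sgRenilla at 90.5%. A second INTS14 event uses the same pair of sites and gave 37.0 points. ZDHHC16, a palmitoyltransferase with 3 isoforms in its event, was at 49% and 53.5% against 21% and 26.5% (27.5 points, limma adjusted p 0.0494). PTPRH, a receptor phosphatase, was at 68.5% and 69% against 35% and 35.5% (33.5 points, limma adjusted p 0.0315), and CDK4, a cell cycle kinase with sites 3 nt apart, at 75.5% and 82.5% against 40% and 30.5% (43.7 points, limma adjusted p 0.0435). In all of these the groups did not overlap.

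For the 33 genes of a list of known SF3B1 targets, the event with the largest difference between the K700E and WT guide libraries was read. Of these 33 events 23 had higher usage with K700E, and 21 of the 23 were higher in sgSUGP1 than in sgGPATCH8, 1 was lower and 1 equal. The list was chosen with these data known. In 13 of the 23 the groups were apart in both runs with higher usage in sgSUGP1, beside 5.66% of all tested events. The median difference was 8.0 points, beside 0.25 over all tested events. Of the 33, MAP3K7 and ZDHHC16 were called.

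TMEM14C, a mitochondrial importer of a heme precursor, used its upstream site (chromosome 6, intron 10723474 to 10724789) in 72% and 75.5% with sgSUGP1 and in 59.5% and 58.5% with sgGPATCH8. The groups did not overlap, but the difference of 14.8 points did not pass (limma adjusted p 0.239). DYNLL1, a dynein light chain, stood at 66% and 67.5% against 48% and 48.5% (18.5 points, limma adjusted p 0.139). DPH5, an enzyme of diphthamide synthesis, stood at 52.5% and 54.5% against 29.5% and 32% (22.8 points, limma adjusted p 0.21). In BRD9, a chromatin remodelling gene, the poison exon was included in 75.5% and 68.5% against 60% and 58% (13.0 points, limma adjusted p 0.319). None of these 4 was called, and in each the sgGPATCH8 libraries had values nearer to the K700E sgRenilla library (58.5%, 48.5%, 39.5% and 51.5%) than the sgSUGP1 libraries had. Of the 10 target events with lower usage in K700E, 5 were lower and 5 higher in sgSUGP1. The groups were apart in both runs in 4, all of them lower in sgSUGP1, beside 4.61% of all tested events apart in that direction. SLC3A2, an amino acid transporter subunit, was among the lower ones, at 50% and 37.5% against 78% and 71% (−30.8 points, limma adjusted p 0.163).

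**Figure D4:**
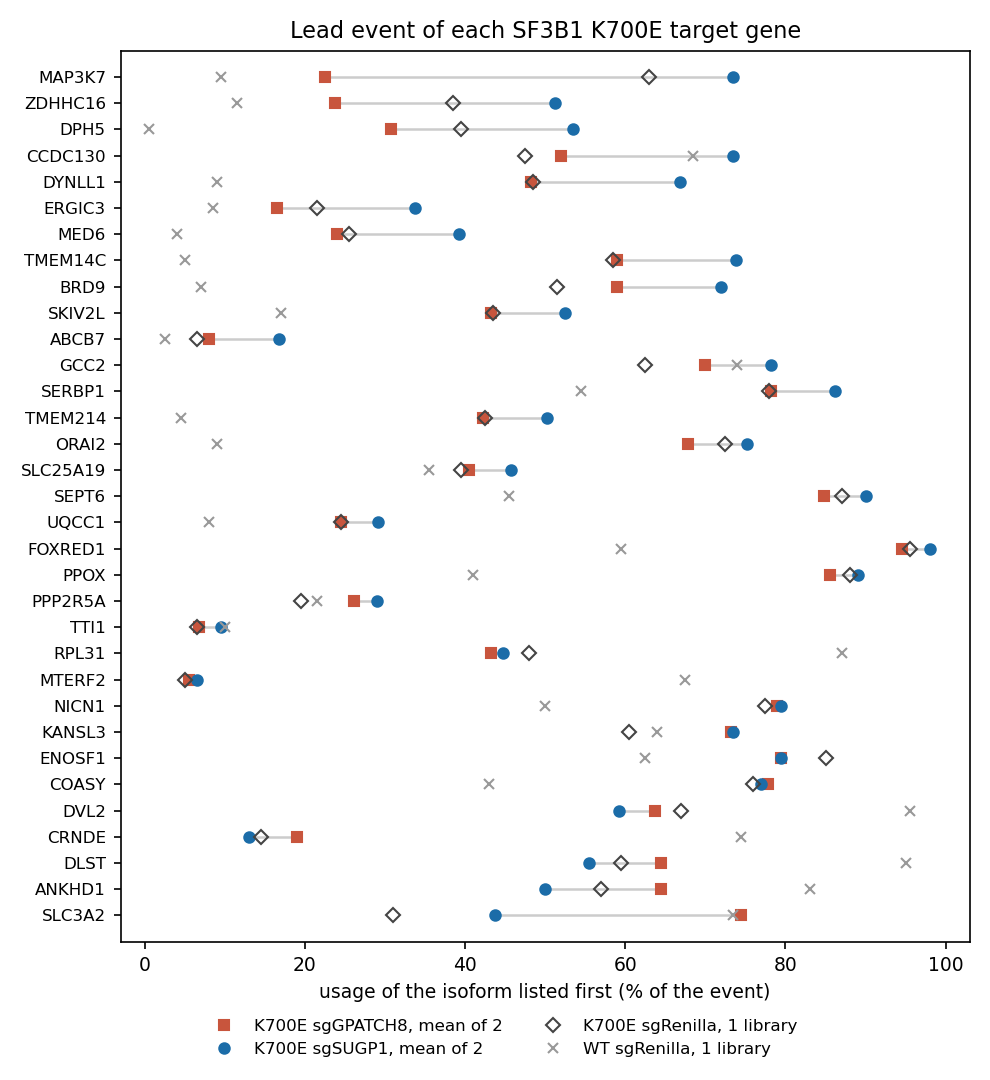
Usage in percent (horizontal axis) of the lead event of each of the 33 SF3B1 target genes (vertical axis): circles are means of the 2 K700E sgSUGP1 libraries, squares means of the 2 K700E sgGPATCH8 libraries, diamonds and crosses the K700E and WT sgRenilla libraries. MAP3K7 has the widest gap, with group means of 73.5% and 22.5%, and in TMEM14C the square lies on the diamond.

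A set of K700E events that uses none of the compared libraries was taken from the sgRenilla libraries: events at least 20 points higher in the K700E than in the WT library in both runs. Of 506 such events 329 were higher and 175 lower in sgSUGP1 than in sgGPATCH8, with a median of 3 points, and 58 against 12 had groups apart in both runs (13.8%, beside 10.3% of all events). The 42 among them with 3' splice sites 10 to 30 nt apart were higher in 36 and lower in 6, with groups apart in 13 and 0 (31%). Their median usage was 61.5% with sgSUGP1, 50.2% with sgGPATCH8, 60.2% in the K700E sgRenilla library and 20% in the WT sgRenilla library. The median difference per event was smaller, 4.25 points, and in WT cells it was 19.5 points. Over the 506 events the medians were 66.8%, 62%, 75% and 41.5% in the same order. Since the sgRenilla values picked these events, the gap between those libraries was set by the rule. They are therefore no reference level for the guides. The 287 events lower with K700E by the same rule were higher in sgSUGP1 in 133 and lower in 150, with groups apart in 7 and 13 (6.97%).

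The place of the K700E sgRenilla library differed between kinds of event. It lay nearer to sgSUGP1 in 100 and nearer to sgGPATCH8 in 51 of the 151 calls with groups apart in both runs. Of the 18 skipped exons called in K700E cells and in 293T cells it lay nearer to sgSUGP1 in all 18, a median of 1.6 points from sgSUGP1 and 28.1 from sgGPATCH8. In the 23 SF3B1 target events higher with K700E it lay nearer to sgSUGP1 in 5 and nearer to sgGPATCH8 in 17, a median of 9 and 1.8 points away. Over all tested events the counts were 23211 and 24528. These are counts against 1 library with no replicate, and a control value that lies near one group is not a test.

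In WT cells the same guides gave 222 calls (0.446%), 141 of them higher in sgSUGP1, and 54 events were called in both genotypes. The SF3B1 target events showed wider gaps in WT cells than in K700E cells: the median of the 23 was 31 points against 8.0, and the WT gap was the larger in 18 of 23. TMEM14C was at 51.5% and 66.5% against 6% and 5.5% in WT cells (53.3 points, limma adjusted p 0.0132). Its difference between the genotypes was −3.40 ± 0.44 on the log2 scale (limma adjusted p 0.201 for the interaction), and that of DYNLL1 was −2.32 ± 0.35 (limma adjusted p 0.242). MAP3K7 had a gap of 51.5 points in WT cells, 49.5% and 62.5% against 4% and 5%, and an interaction of −1.30 ± 0.45 (limma adjusted p 0.437). None of these interactions passed. Among the short exons the WT gap was 55.8 points in ACOT9 (limma adjusted p 0.0542), 32.8 in UGGT1 (limma adjusted p 0.0823, beside 48.5 points in K700E cells), 36 in TRAPPC13 (0.0452, limma adjusted p) and 27.2 in ACLY (0.0417, limma adjusted p). Over all tested events the interaction was called in 2 (0.00402%), with 4992 at an unadjusted p under 0.05, and both belong to the ferritin gene FTH1.

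The 293T libraries carry neither K700E nor any K562 sample. There 204 of 48828 tested events were called (0.418%), 155 higher and 49 lower in sgSUGP1. The p-values there measure spread within guides, not differences between guides, and leaving out any of the 8 libraries left 0 calls, with 5053 to 5550 events at an unadjusted p under 0.05. Of the 204, 192 were also tested in K562. In K700E cells 179 of the 192 had the same sign, with a median of 14 points in the 293T direction. Groups were apart in both runs in that direction in 144, beside 10.3% of all tested events in either direction. Of the 192, 42 were called, beside 0.468% of all tested events. All 192 had the same sign in WT K562, with a median of 20.5 points. The 42 events called in both lines belong to 32 genes, 29 with higher and 13 with lower usage in sgSUGP1, by 8.3 to 61.5 points in K700E cells. They were 18 skipped exons, 13 alternative 3' splice sites, 6 retained introns, 4 mutually exclusive exons and 1 alternative 5' splice site.

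The 293T values of the named events were as follows. ACOT9 inclusion was 73.0% ± 2.9 (SD, n = 4) against 19.2% ± 5.7 (n = 4; limma adjusted p 0.0102), and UGGT1 94.0% ± 3.2 against 60.8% ± 6.7 (n = 4 each; limma adjusted p 0.0152). The exons of DST and FLNA, which missed the threshold in K700E cells, were called here: DST at 85.5% ± 3.8 against 32.0% ± 12.9 (n = 4 each; limma adjusted p 0.0106) and FLNA at 76.0% ± 1.4 against 36.5% ± 3.7 (n = 4 each; limma adjusted p 0.013). At the upstream site of MAP3K7 usage was 35.0% ± 3.8 against 3.5% ± 1.3 (n = 4 each; limma adjusted p 0.0102), and at that of TMEM14C 47.8% ± 9.0 against 7.8% ± 1.7 (n = 4 each; limma adjusted p 0.0102). The exon of the epigenetic reader gene CXXC1 was the exception among the short exons called here, 21.7 points lower in sgSUGP1 in 293T and 2.0 points higher in K700E cells. In WT K562 cells its difference was −24.7 points (limma adjusted p 0.0187), the direction of 293T.

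**Figure D5:**
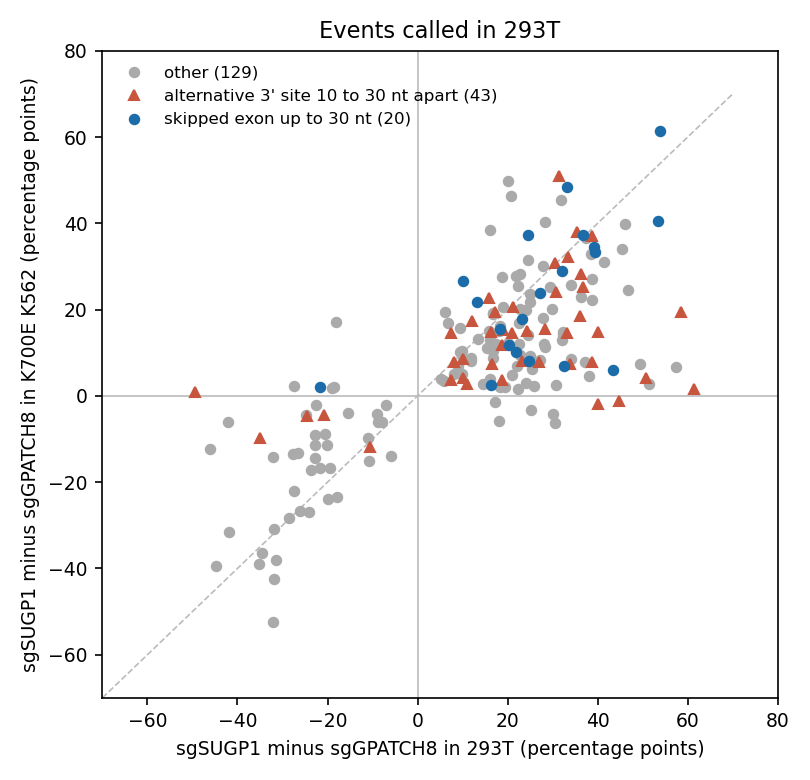
Events called in 293T cells and tested in K562: the difference between sgSUGP1 and sgGPATCH8 in 293T (horizontal axis) against that in K700E K562 cells (vertical axis), in percentage points, 1 point per event. All 20 short exons lie above 0 in K700E cells, and 37 of the 43 alternative 3' splice sites with sites 10 to 30 nt apart do.

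The genes of each list were chosen with earlier results of these data known, and the lists were described by their counts, beside 0.468% called and a median of 0.25 points over all events. The SF3B1 target list had 4 events called with higher and 1 with lower usage in sgSUGP1 of 240 (2.08%), and 41 higher against 19 lower with groups apart in both runs (25%, beside 10.3% of all events). The SR protein and TRA2 list had 3 calls of 121, all lower in sgSUGP1, in TRA2A and SRRM2. The hnRNP list had 2 calls (1.98% of its tested events), both higher in sgSUGP1, and both rest on run 2 (HNRNPAB and HNRNPUL1, −0.5 points each in run 1). Heme and iron genes had 2 calls of 109, both in FTH1. Erythroid genes had 2 of 135, an exon of the membrane skeleton gene ADD1 (15.0 points) and one of the erythroid transcription factor NFE2 (6.5% and 7% against 18% and 16.5%, −10.5 points, limma adjusted p 0.0477). NF-kappaB genes had 2 of 112, MAP3K7 and the apoptosis inhibitor BIRC2 (−28.2 points). Among factors of the U2 snRNP and the branch point (77 events), G-patch proteins with their helicases (89) and nonsense-mediated decay (45), limma called 0, and an unadjusted p under 0.05 was found for 8, 10 and 11 events. A list of 20 tested genes that earlier results of these data gave as moved by SUGP1 loss had 1 call of 121 events, and one of 4 genes moved by GPATCH8 loss had 5 higher and 3 lower of 38 (21.1%), so neither is independent evidence. In the decay list 10 events were higher and 1 lower with groups apart in both runs (24.4%), with a median of 1.75 points.

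The calls were then read by type, each type with the share called and the events whose groups were apart in both runs. Over all tested events groups were apart in 10.3%, 5.66% higher and 4.61% lower. The share apart was 8.83% in alternative 3' splice sites, 10.8% in skipped exons and 13.5% in retained introns. It was 7.96% in alternative 5' splice sites, 11.9% in mutually exclusive exons and 8.82% in tandem 3' UTR events. Alternative 3' splice sites had 23 calls with higher and 18 with lower usage in sgSUGP1 of 12336 (0.332%), and groups apart in 700 and 389. Skipped exons had 45 and 67 of 22700 (0.493%), but groups apart the other way round, in 1521 higher and 935 lower, with a median of 0.75 points. Retained introns had 12 and 6 of 3895 (0.462%) and also differed from their groups apart, 228 higher and 297 lower, with a median of −0.25 points. In these 2 types the calls and the wider count thus point in opposite directions. Alternative 5' splice sites had 2 and 19 of 4837 (0.434%), with groups apart in 164 and 221. Mutually exclusive exons had 2 and 14 of 3975 (0.403%), with groups apart in 169 and 305. Tandem 3' UTR events had 1 and 24 of 2040 (1.23%), with groups apart in 34 and 146 and a median of −2 points. The run 2 values of the sgSUGP1 libraries in this type, given above, lie in that direction, and their part in these calls was not tested. Large calls outside this type also rested on run 2, in which the sgGPATCH8 libraries moved further than the sgSUGP1 libraries of K700E cells. In the 58 calls picked above for such a change, the K700E sgRenilla and WT libraries moved as well, by medians of 39 to 47 points. The keratin gene KRT10 was at 9.5% and 10% against 57% and 58% (−47.7 points, limma adjusted p 0.0089), with −5.5 points in run 1 and −90.0 in run 2. Its sgGPATCH8 libraries went from 15% and 17% to 99% and 99%, its sgSUGP1 libraries from 11% and 10% to 8% and 10%. FTH1 was at 100% in both sgSUGP1 libraries against 63% and 64.5% (36.3 points, limma adjusted p 0.00428), with 0.0 points in run 1 and 72.5 in run 2. All 4 libraries were at 100% in run 1, and the sgGPATCH8 libraries were at 26% and 29% in run 2. HMG20B, SIRT7 and VIM had −42.7, −40.5 and −40.2 points over both runs, and 2.0, −3.5 and −7.5 in run 1.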

How the data were processed

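RNA from K562 and 293T cells was sequenced as strand-specific (dUTP), poly(A)-selected paired-end libraries, per the labels' protocols. The authors deposited, for each of 110818 splicing events, the fraction of the isoform listed first, from 0 to 1, printed here as percent. The human build was hg19 (GRCh37) and the tools included TopHat, TopHat2 2.0.8b, Bowtie and RSEM 1.2.4, per the submitters' processing notes. What each tool did, and the step that made the fractions, is not given in the sources used here. No file gives reads behind a fraction, so no interval was computed. Whether the runs of a guide are repeats of 1 library or separate libraries, and what the 293T names WT-1 and WT-2 stand for, was not settled.

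Runs were averaged to libraries. An offset of 0.01 was added to the used and the unused fraction, and the log2 of their ratio was fitted in R 4.3.3 (limma 3.58.1 and the data.table package, version 1.17.8) with a mean per group over the 8 K562 guide libraries and a trended prior variance. P-values were adjusted by Benjamini-Hochberg over all tested events: those with a value in every library, some group mean of at least 5% and some of at most 95%. In 293T each guide had its own mean, and guides were weighted equally. The fit was tested on simulated data. Replicate numbers stand for guides and do not pair libraries across groups.

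Names came from GENCODE 29 (GRCh38) by exact intron lengths and a shift shared with neighbouring events, with no coordinate converted. This named 104782 events (94.6%), 1626 of them by a shared splice site and none of the tandem 3' UTR events, and 2 events without coordinates were left out. Text names were chosen by rule: the 12 largest calls in each direction, 1 event a gene, the lead event of each gene of the SF3B1, SUGP1 and GPATCH8 lists, all events of the targeted genes, and called events of the other lists. Calls apart in both runs, short exons and the position of the control library were added after the values were seen. The members and lists were chosen with earlier results of these data known. Alternatives were the offset, the limits on group means, each run alone, a value in both runs, an arcsine transform, leaving out tandem 3' UTR events, a replicate block, each library left out, the 4 K700E libraries alone, no variance trend and, added after seeing the data, leaving out run 2 of the K700E sgSUGP1 libraries.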

Additional observations from a re-analysis of the deposited data

Results flagged for a closer look

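In 293T, where each group had 4 libraries, the 42 events called in both cell lines gave 84 groups, and in 8 of them 1 library stood apart from the other 3, while chance gives about 1 in 20 groups of continuous values. The deposited values are whole percents and in 7 of the 8 cases the other 3 libraries were equal, where any difference stands apart, so that rate does not hold for them. In E2F7, 1 sgSUGP1 library used the upstream site in 23% against 33% to 35% in the others. Those 7 cases were of 1 or 2 points: ACTN4 (93% against 94%), ACTR3B (12% against 14%), G3BP2 (8% against 7%), H2AFY (21% against 19%) and MYL6 (38% against 39%) in sgSUGP1, and 2 overlapping DDX11 events in sgGPATCH8 (4% and 2%, each against 3%).

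The difference between sgSUGP1 and sgGPATCH8 itself differed between K700E and WT cells in 2 overlapping exons of FTH1 (limma adjusted p 0.0303 for each interaction). The interactions were 5.99 ± 0.30 SE and 5.90 ± 0.31 on the log2 scale, and the K700E difference was 0.0 points in run 1 and 72.5 and 69.5 points in run 2.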

How the results depend on the processing

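Depth is unknown, 2 libraries a group limit every call, and the runs differed by library. The 233 K700E calls became 1 in run 1 alone (the DDX11 intron), 433 in run 2 (146 shared with the 233), 449 with a value required in both runs (224 shared), 37 without tandem 3' UTR events (17 higher in sgSUGP1, all 37 shared, while 208 of the 233 are of other types), 3 with the replicate block, 0 with the 4 K700E libraries only (7160 events at an unadjusted p under 0.05) and 88 without run 2 of the sgSUGP1 libraries (66 shared), the last chosen after seeing the data. Leaving out 1 library gave 0 to 2 calls. Offset, limits, arcsine and trend gave 185 to 285. The causes of these changes, a lower number of libraries among them, were not tested. Run 1 alone reversed HMG20B (2.0 points, from −42.7), HNRNPAB (−0.5, from 13.0) and HNRNPUL1 (−0.5, from 37.8). No other named call reversed under these settings. This covers 154 of the 233 calls, and 142 of them had groups apart in the same direction in both runs, so run 1 could not reverse those. Over all 233 calls, 226 with a value in both runs, 188 had the same sign in run 1. Among the 82 calls not apart in both runs, 75 with a value in both runs, 37 had the same sign.

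The guides' numbers do not pair libraries: same-numbered libraries had deviations correlated at 0 to 0.02, so the 3 calls under the replicate block (DDX11 and FTH1) describe the fit only. The 2 interaction calls became 49 with no limits on group means, 20 in run 2 alone but 0 in run 1, 4 where both runs needed a value, 0 with arcsine, 0 with the replicate block and 0 without any 1 library (3158 to 5017 events at an unadjusted p under 0.05 where 0 were called). The 204 calls in 293T became 395 with a mean per target, 0 without any 1 library, and 208 to 217 otherwise.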

Other observations

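Some events that were at least 20 points higher in the K700E than in the WT sgRenilla library, in both runs, had groups apart in both runs without passing the test. GSN, an actin-severing protein, has an alternative 3' splice site event with 3 isoforms. The one listed first was used in 73% and 73.5% with sgSUGP1 and in 43% and 35.5% with sgGPATCH8 (limma adjusted p 0.129). In 293T cells its usage was 51.8% ± 10.6 (SD, n = 4) against 6.5% ± 1.9 (n = 4, limma adjusted p 0.0152). The GSN event with 2 isoforms, sites 9 nt apart, stood at 87% and 88% against 81.5% and 80% (6.8 points, limma adjusted p 0.36). Its K700E groups were not apart in both runs, with 13 points in run 1 and 0.5 in run 2, and 293T cells had 57.5 points (limma adjusted p 0.0216). HSF4, a heat shock transcription factor, stood at 63% and 60.5% against 29% and 30% (limma adjusted p 0.0643), with sites 14 nt apart. STRADA, a partner of the kinase LKB1 with sites 5 nt apart, stood at 83.5% and 90.5% against 52.5% and 43.5% (limma adjusted p 0.0887), and at 50.5% and 47.5% against 43.5% and 24% in WT cells. ICA1, a protein of secretory vesicles, used the upstream of its mutually exclusive exons in 56% and 60.5% against 33% and 31.5% (limma adjusted p 0.0727). In each of these 4 genes no sgSUGP1 library of K700E cells overlapped an sgGPATCH8 library. Such events went the other way as well: of 506 events, 58 had groups apart with higher and 12 with lower usage in sgSUGP1. The intron of GOLGA2P10, a pseudogene whose reads could be shared with its copies, was spliced in 5% and 1.5% with sgSUGP1 and in 55.5% and 39.5% with sgGPATCH8 (−44.2 points, limma adjusted p 0.0805). PRDM2, a zinc finger protein with a methyltransferase domain, stood at 53.5% and 47.5% against 88% and 76% at an alternative 5' splice site (−31.5 points, limma adjusted p 0.153). In both the groups were apart and lower in sgSUGP1.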
